A study of Mus musculus with 24 samples.

Results

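HES and HEY proteins are the best known direct effectors of Notch signalling, and 7 mouse genes of this family were examined for MYT1L binding: Hes1, Hes5, Hes6, Hes7, Hey1, Hey2 and Heyl, out of 21938 protein-coding genes. Their sites were the entries of 4 MYT1L site lists that touched the gene body or lay within 20 kb of it, which gave 29 sites in all. Binding had been mapped with CUT&RUN, in which an antibody brings a nuclease to the protein of interest and the DNA cut loose around it is sequenced. The 4 lists came from mouse cortex, with the strain given as C57BL/6J in the labels and as C57BL/6N for the mutant line in the methods: WT at embryonic day E18.5 (14477 sites), WT at birth (P0, 40698 sites), adult Myt1l heterozygotes (adult HET, 56937 sites) and adult WT (32145 sites). Each list merged 3 MYT1L libraries, and 3 IgG libraries per group, which make up the rest of the 24 samples, are not analysed here. Adult HET mice carried a germline frameshift deletion in the first coding exon of Myt1l on a single allele, so an intact copy remained, and the other 3 groups were WT. Sex was given as unknown. All tissue tags read cortex, whereas the dissection was described as prefrontal cortex. Some adult libraries of both genotypes had Myt2l or Myt3l in their titles but were used as MYT1L libraries, since the descriptions of all of them point to the Myt1l list. E18.5 and P0 shared sequencing run 1 and both adult groups shared run 2, and therefore stage cannot be told apart from run.

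A list entry had a start and an end but no height, score or p-value, sequencing depth was unknown, and with a single merged list per group no value below has a replicate error or a test. Sites were shortest in adult HET, with a median width of 108 bp, against 593 bp at E18.5, 276 bp at P0 and 167 bp in adult WT. Whether the number and width of sites followed library depth was not tested. A gene without a site in a list is a gene without an entry there, which is not the same as an unbound gene.

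HES and HEY proteins are basic helix-loop-helix repressors that carry an Orange domain and recruit Groucho/TLE co-repressors. When a ligand activates a Notch receptor, the receptor's intracellular part moves to the nucleus, joins the DNA-binding protein RBPJ and switches these genes on. In the developing cortex Hes1, Hes5 and Hey1 keep progenitors from becoming neurons by repressing proneural genes such as Neurog2. Hes6 differs from its relatives, since it counteracts Hes1 and favours neuronal differentiation. Hes7 is known mainly from the segmentation clock of the embryo, and Hey2 and Heyl mainly from heart and vessels.

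Positions are given in bp from the coding start, meaning the most upstream start of a gene's protein-coding transcripts in GENCODE, with negative values upstream and positive values downstream in the direction of transcription. Genome positions are mm10 and count from 1. The stretches printed here are examples of places where the lists shared a site or differed. Those at Hes1 and Hey1 are not printed. The first is the stretch at Hes7 that lay in a site of all 4 lists, chr11:69124333-69124455 on the plus strand, from +3929 to +4051, between the 3' end of Hes7 and the start of Aloxe3. Capitals in this and the next 2 sequences mark AAAGTT, the core of the motif the study used for MYT1L, and TGGGAA, the core of the RBPJ motif, each in either orientation (AACTTT and TTCCCA on the other strand).
Hes7, all 4 lists: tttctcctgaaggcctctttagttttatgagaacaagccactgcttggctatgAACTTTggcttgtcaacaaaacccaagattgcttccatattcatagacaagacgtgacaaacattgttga

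The next pair are the 2 upstream regions of Hes5. The adult region, chr4:154957354-154957523, was the adult HET site and lay inside the adult WT site, from -3569 to -3400. It held 1 TGGGAA and no AAAGTT.
Hes5, adult region: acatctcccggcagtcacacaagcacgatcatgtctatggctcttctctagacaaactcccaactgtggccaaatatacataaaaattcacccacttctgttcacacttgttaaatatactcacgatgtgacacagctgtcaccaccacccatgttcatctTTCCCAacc
The perinatal region, chr4:154944314-154944613, is 300 bp of the stretch that was shared between E18.5 and P0, from -16609 to -16310. It held 1 AAAGTT and 1 TGGGAA.
Hes5, perinatal region: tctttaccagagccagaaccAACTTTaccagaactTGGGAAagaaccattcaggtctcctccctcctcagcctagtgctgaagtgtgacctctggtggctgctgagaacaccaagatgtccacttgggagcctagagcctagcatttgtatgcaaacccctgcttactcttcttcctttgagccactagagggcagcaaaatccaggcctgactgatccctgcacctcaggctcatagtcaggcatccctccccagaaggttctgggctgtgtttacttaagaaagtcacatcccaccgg

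The last is the Hes6 promoter upstream of the coding start, chr1:91413223-91413472 on the minus strand, from -250 to -1, which lay inside an E18.5 site and in no site of the other lists. It is taken from the RefSeq promoter table of GRCm38.p6, in which 4 of the 7 genes matched (Hes5, Hes6, Hes7 and Hey2) and Hes1, Hey1 and Heyl did not. It held neither AAAGTT nor TGGGAA, and capitals mark its single CACNAG, the N box that HES proteins can bind.
Hes6, promoter: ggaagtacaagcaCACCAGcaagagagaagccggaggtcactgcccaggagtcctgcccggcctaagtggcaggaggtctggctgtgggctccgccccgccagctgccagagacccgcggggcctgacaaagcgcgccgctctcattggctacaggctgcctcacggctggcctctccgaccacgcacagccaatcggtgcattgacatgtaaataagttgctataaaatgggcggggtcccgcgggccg
Among all 32851 promoters of 300 bp in that table, 14.1% held AAAGTT, 25.6% held TGGGAA and 42.5% held CACNAG on either strand. The printed Hes6 stretch is shorter than its entry. The full entry, from -250 to +49, held 2 CACNAG and neither of the other words. These matches describe the letters in these windows and nothing more.

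**Figure D1:**
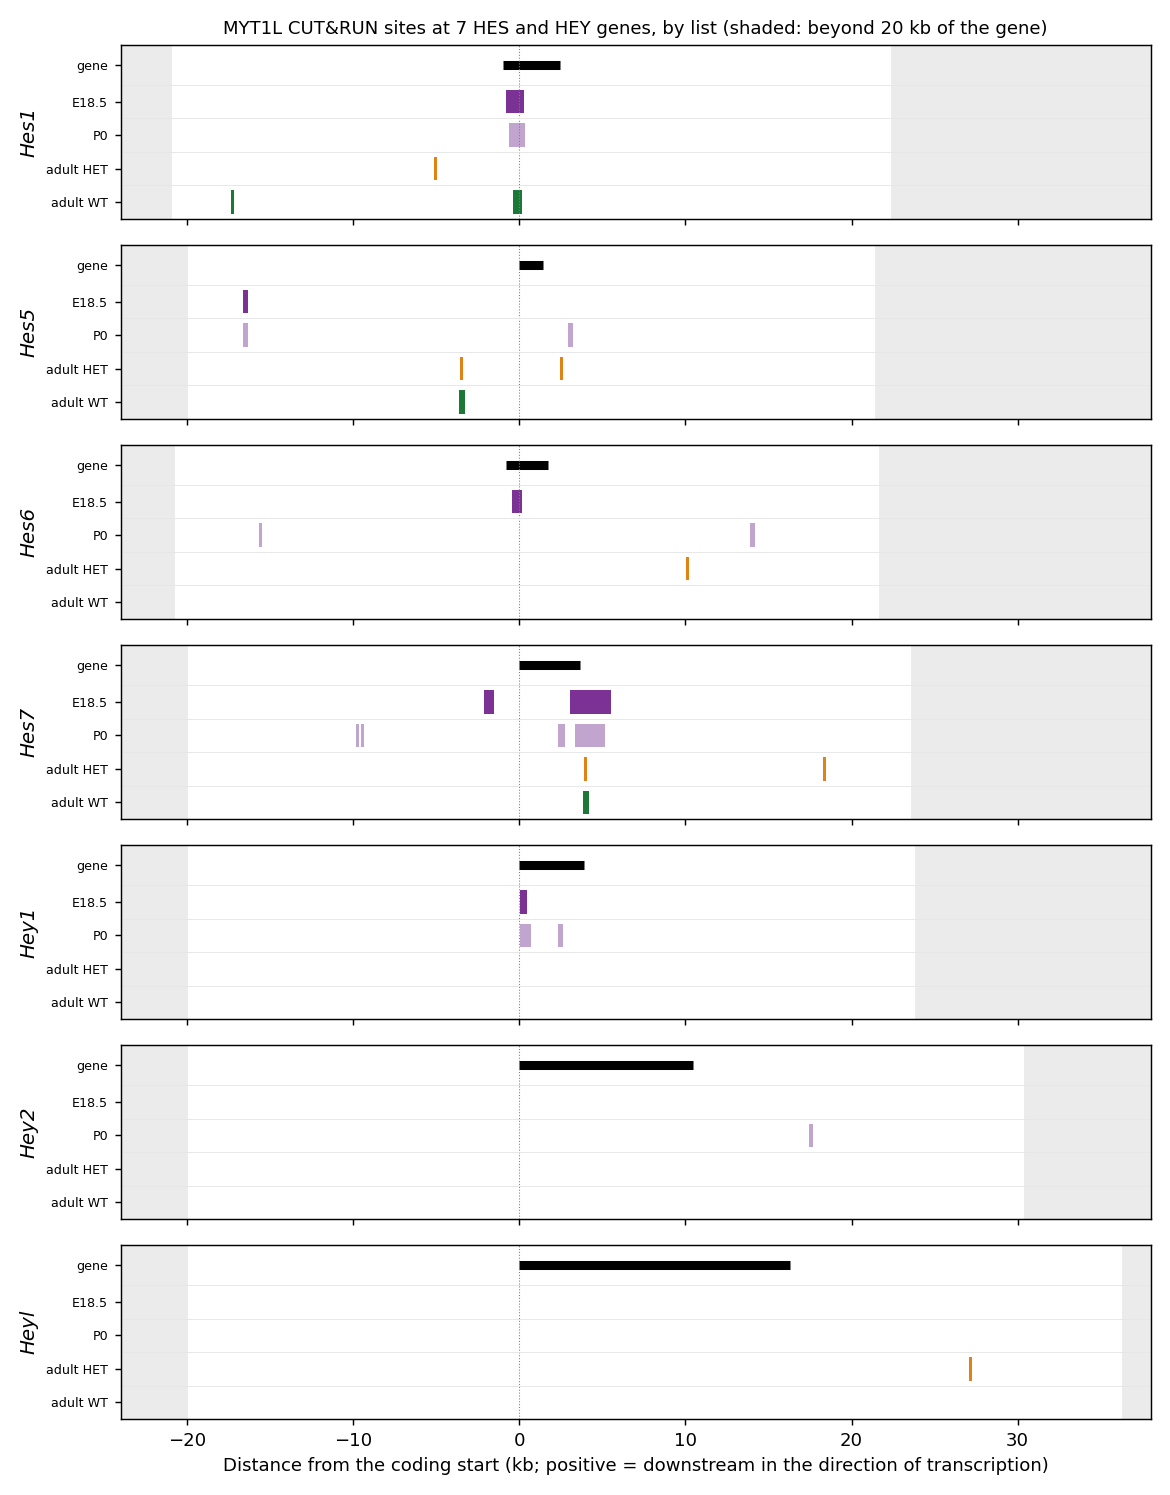
MYT1L sites at the 7 genes, with distance from the coding start in kb on the x axis and the 4 lists as rows (E18.5, P0, adult HET, adult WT) below the gene in black. Each coloured block is a site, with the narrowest drawn wider than to scale so that they remain visible, and grey shading lies beyond 20 kb of the gene. Hes1 and Hes6 have sites over the coding start, Hes7 has a stack of sites in all 4 lists at its 3' end, and the adult rows of Hey1 are empty.

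Hes1, a central Notch effector that maintains neural progenitors, had its promoter covered in 3 of the 4 lists. Hes1 (ENSMUSG00000022528.8) lies at chr16:30064384-30067796 on the plus strand with its coding start at 30065340. At E18.5 the site ran from -795 to +262, a width of 1058 bp of which 795 bp were upstream, 251 bp in the 5' UTR and 12 bp in coding sequence. At P0 it ran from -637 to +347 over 985 bp, and in adult WT it began at -388 and covered 540 bp, of which 152 bp were in the 5' UTR. The adult WT site lay wholly inside the others, so the 3 lists shared a core of 540 bp around the start. These were wide sites for their lists, with a width percentile of 87.1 at E18.5, 97.0 at P0 and 97.7 in adult WT.

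The adult HET list had no entry at the Hes1 start. Its nearest site was 82 bp wide, a width percentile of 20.6, and ran from -5108 to -5027, overlapping no site of another list. It still counted as within 5 kb of a Hes1 start, since a non-coding Hes1 transcript begins upstream and the site lay 4071 bp from that start. With starts of protein-coding transcripts only, the site fell just outside 5 kb, and Hes1 was without a site in adult HET. Adult WT had a second site, 163 bp wide, 17.2 kb upstream, which no other list shared.

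The shared core at Hes1 held both words that were searched for. AAAGTT stood at -90 and again at -72, and TGGGAA at -80 and -66, so that 2 matches of each alternated on the gene's strand within 30 bp, from -90 to -61. All 4 matches lay inside the sites of E18.5, P0 and adult WT. Within 75 bp of the site midpoint, AAAGTT was found 1 time at P0, 2 times in adult WT and not at E18.5, where the midpoint lay farther upstream at -267. Across all sites, 15.2% at E18.5, 14.6% at P0, 14.5% in adult HET and 13.8% in adult WT held AAAGTT in such a window. The promoter of Hes1 (500 bp on either side of the coding start) was 45.8% GC and did not reach the 50% set here for a CpG-rich promoter.

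**Figure D2:**
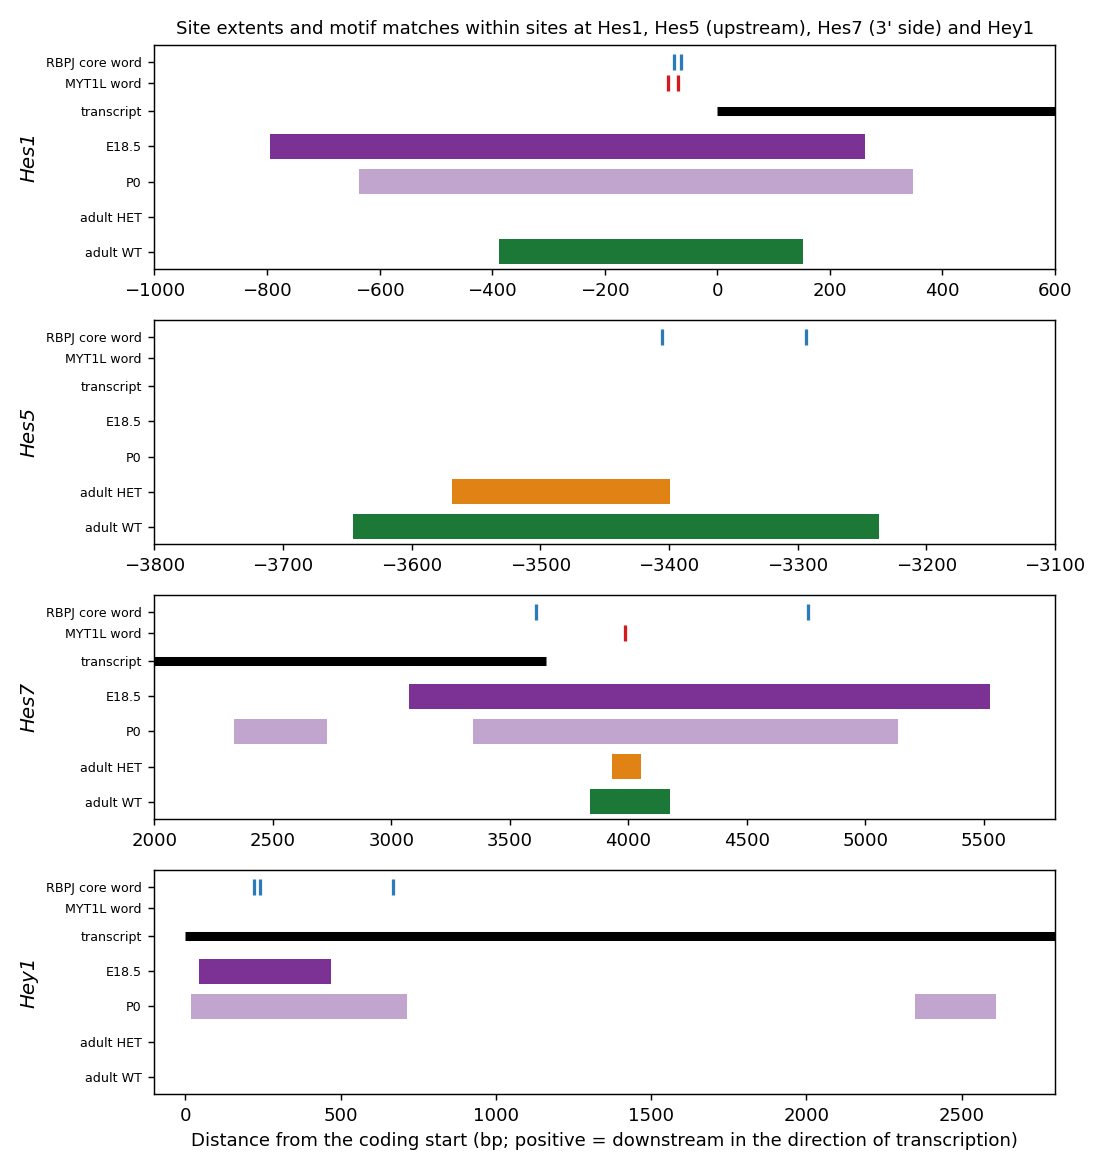
Sites of the 4 lists (coloured bars, E18.5 on top, then P0, adult HET and adult WT) at Hes1, upstream of Hes5, at the 3' side of Hes7 and at Hey1, with distance from the coding start in bp on the x axis. The black bar is the gene from its coding start, and ticks on top mark AAAGTT (red) and TGGGAA (blue) within sites. The 4 ticks at Hes1 fall within 30 bp of each other in the stretch shared by 3 lists, and the red tick at Hes7 falls in the 123 bp shared by all 4.

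Hes5, the other main HES gene of cortical progenitors, had sites on both sides but none over its start in any list. It lies at chr4:154960923-154962371 on the plus strand. E18.5 and P0 shared a region 16.3 kb upstream, with a site of 349 bp from -16650 to -16302 at E18.5 and of 304 bp from -16611 to -16308 at P0. The adult lists had no site there. They shared another region closer to the gene, with a site of 170 bp from -3569 to -3400 in adult HET and of 409 bp from -3646 to -3238 in adult WT. The adult region was absent from the E18.5 and P0 lists, so the upstream sites of the perinatal and the adult lists did not overlap.

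Within their own lists the adult Hes5 sites were wide, with a width percentile of 90.8 in adult HET and 92.7 in adult WT. The perinatal pair was not, with 12.2 at E18.5 and 55.5 at P0. On the 3' side P0 had a site of 327 bp from +2936 to +3262 that covered the start of Pank4, a gene of the pantothenate kinase family, and adult HET had a separate site of 196 bp from +2429 to +2624, which lay 576 bp from the Pank4 start. The start nearest to the perinatal region was that of Tnfrsf14, a TNF receptor family gene, at 15710 bp from the E18.5 site, where Hes5 was 16302 bp away. Only the adult upstream region had Hes5 as its nearest gene start. The Hes5 promoter was CpG-rich, with 68.6% GC.

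Hes6, the relative that counteracts Hes1, was the 1 gene of the 7 whose start was covered at E18.5 and in no other list. Hes6 lies at chr1:91411483-91414038 on the minus strand with its coding start at 91413222. The E18.5 site ran from -455 to +145 over 601 bp, which is close to the median width of that list. At P0 the nearest site was 13.9 kb from the start, in adult HET 10.1 kb and in adult WT 78.9 kb. A site within 5 kb at E18.5 but in none of the other lists was found for 135 of all protein-coding genes, or 0.615%.

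The remaining sites in the Hes6 window lay nearer to other genes or inside them. P0 had a site of 284 bp from +13888 to +14171, which was 258 bp from the start of Ilkap, a phosphatase gene, and held 1 AAAGTT. The second P0 site, 204 bp wide from -15666 to -15463, lay inside Per2, a gene of the circadian clock. Adult HET had a site of 87 bp from +10062 to +10148, and adult WT had none in the window. No 2 of these 4 lists shared a site at Hes6.

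Hes7, the segmentation clock gene, carried the 1 region of 21 that was present in all 4 lists. It lies at chr11:69120404-69124055 on the plus strand. At its 3' side the site was 2454 bp wide at E18.5, from +3073 to +5526, and 1795 bp wide at P0, from +3345 to +5139. In adult HET it was 123 bp wide, from +3929 to +4051, and in adult WT 337 bp wide, from +3838 to +4174. The sites were nested around 1 point, since the adult HET site lay inside that of adult WT, and both lay inside the P0 site and the E18.5 site.

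The E18.5 and P0 sites at this region were among the widest of their lists, with a width percentile of 99.5 at E18.5 and 99.7 at P0, beside 66.3 in adult HET and 86.8 in adult WT. The E18.5 site covered 579 bp of the Hes7 3' UTR, 1875 bp beyond the gene, and the start of Aloxe3, an epidermal lipoxygenase gene. In all 4 lists Aloxe3, and not Hes7, had the nearest coding start, at 1441 bp from the adult HET site and 1318 bp from the adult WT site. The 123 bp common to all lists lay between the genes and held AAAGTT, on the minus strand, at +3982. Among all sites in gene windows, 4.37% at E18.5, 1.45% at P0, 1.24% in adult HET and 1.94% in adult WT met a site of every other list.

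Hes7 also had sites of single lists. E18.5 had a site of 594 bp from -2129 to -1536 that held 1 AAAGTT. P0 had 1 of 394 bp from +2334 to +2727, over 254 bp of coding sequence and 140 bp of 3' UTR, for which 9130213A22Rik had the nearest start at 149 bp. A P0 pair of 161 bp and 101 bp lay 9671 bp and 9377 bp upstream, and adult HET had a site of 163 bp inside Aloxe3, from +18275 to +18437. The start of Hes7 itself lay in no site, and its promoter was not CpG-rich by the ratio used, at 0.43 observed over expected CpG.

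Hey1, a HEY gene expressed in progenitors, had a site just downstream of its start at E18.5 and P0 and none in either adult list. Hey1 lies at chr3:8663359-8667256 on the minus strand. At E18.5 the site ran from +45 to +467, with 341 bp in the 5' UTR and 82 bp in coding sequence. At P0 it ran from +18 to +712, taking in 204 bp of intron as well, and covered the E18.5 site. In width percentile of the list, the E18.5 site stood at 22.5 and the P0 site at 91.1. P0 had a further site of 259 bp within coding sequence, from +2351 to +2609.

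The nearest adult sites to Hey1 were far away, at 60.6 kb in adult HET and 39.9 kb in adult WT. Among all genes, 86.8% had a nearer site in adult HET and 58.0% in adult WT. No AAAGTT was found in any Hey1 site. The stretch shared by E18.5 and P0 held TGGGAA at +219 and +236, and the P0 site held another match at +665. The pattern of a site within 5 kb at E18.5 and P0 and in neither adult list was shared by 2383 genes, or 10.9%.

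Hey2 and Heyl, the vascular members, had no site in the gene or within 5 kb of a start in any list. Hey2 lies at chr10:30832359-30842801 on the minus strand, and it had 1 site, in the P0 list, 258 bp wide from +17427 to +17684, which is beyond the 3' end. The nearest E18.5 site was 208 kb from its start, against 17.4 kb at P0, 27.8 kb in adult HET and 31.6 kb in adult WT. Heyl lies at chr4:123233556-123249875 on the plus strand, and its only site was in adult HET, 90 bp wide from +27093 to +27182, with the start of Pabpc4, a poly(A)-binding protein gene, as the nearest. Its nearest site lay 93.5 kb away at E18.5, 32.6 kb at P0, 27.1 kb in adult HET and 50.1 kb in adult WT. These sites were not shared with another list. Absence of a site within 5 kb in all lists was common, at 35.3% of all protein-coding genes.

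**Figure D3:**
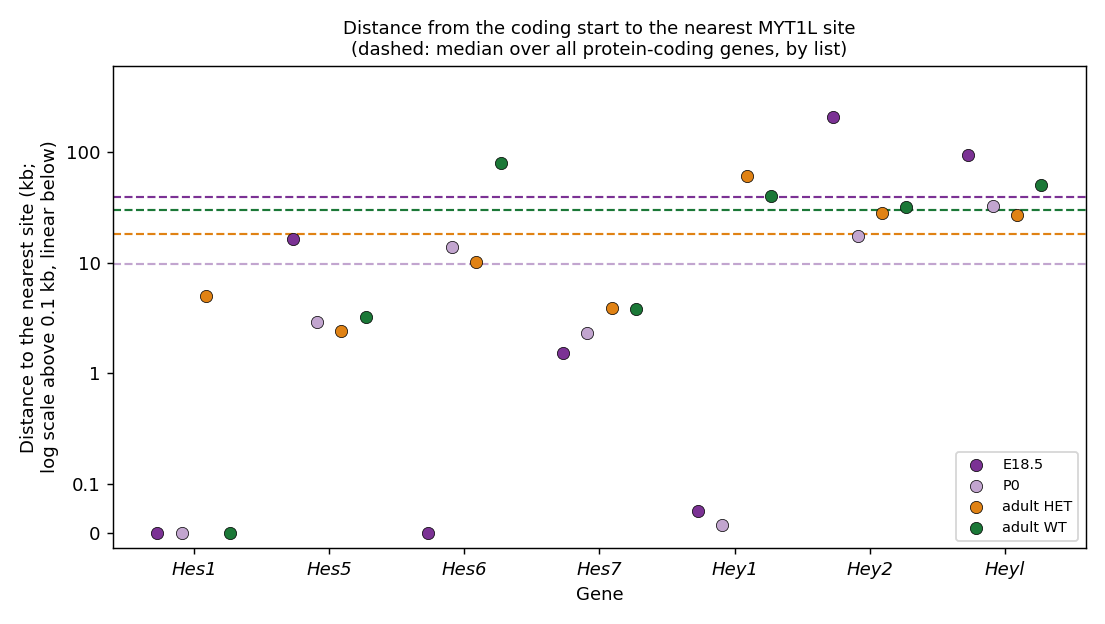
Distance in kb from the coding start of each gene to the nearest site of each list, with 0 for a start inside a site, on an axis that is logarithmic above 0.1 kb and linear below. Points run E18.5, P0, adult HET, adult WT for each gene, and dashed lines give the median over 21938 genes in the colour of the list. All points of Hes1, Hes5 and Hes7 lie below the line of their own list, and all points of Hey2 and Heyl lie above it.

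Counted over the 7 genes, sites within 20 kb were about as frequent as in genes at large. At E18.5, 5 members had a site in the gene or within 20 kb, where 49.0% of all protein-coding genes did and 40.0% of those no longer than Heyl, the longest member (16320 bp). At P0 it was 6 members, against 69.1% and 56.2%. In adult HET it was 5 members, against 68.9% and 57.6%, and in adult WT 3 members, against 54.1% and 42.1%. With 7 genes a single member moves the count by much, and these counts lie near the background.

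Within 5 kb of a start the counts were 4 members at E18.5 (Hes1, Hes6, Hes7 and Hey1), 4 at P0 (Hes1, Hes5, Hes7 and Hey1), 3 in adult HET and 3 in adult WT (Hes1, Hes5 and Hes7 in both). Over all protein-coding genes the share reached 31.7% at E18.5, 48.7% at P0, 30.4% in adult HET and 24.6% in adult WT. Among genes with a CpG-rich promoter, which Hes5, Hes6, Hey1 and Hey2 have, it was 52.2%, 74.9%, 36.3% and 33.7% in the same order. Among genes no longer than Heyl it was 25.3%, 36.6%, 22.8% and 18.2%. The counts of members lay above the shares of these shorter genes. They lay near the shares of CpG-rich genes at E18.5 and in both adult lists. At P0 they lay below, with 4 of 7 members against 74.9%. Hes1, Hes7 and Heyl do not have a CpG-rich promoter. With 7 genes, nothing particular to the family is read from them. The coding start itself lay inside a site for 2 members at E18.5 (Hes1 and Hes6), 1 at P0, 0 in adult HET and 1 in adult WT (Hes1 in both), where 20.6%, 26.1%, 1.73% and 4.93% of all genes had their start inside a site.

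The members split by distance to the nearest site. Hes1, Hes5 and Hes7 lay nearer to a site than the median gene in every list, Hey2 and Heyl farther in every list, Hes6 nearer at E18.5 and in adult HET, and Hey1 nearer at E18.5 and P0. The median distance from the coding start to the nearest site was 1.54 kb over the members at E18.5, where it was 39.4 kb over all genes. It was 2.94 kb against 9.66 kb at P0, 10.1 kb against 18.2 kb in adult HET, and 31.6 kb against 30.2 kb in adult WT. For genes with a CpG-rich promoter the medians were 6.03 kb, 0.062 kb, 17.1 kb and 23.3 kb from E18.5 to adult WT, so the median member was farther from a site than the median CpG-rich gene at P0 and in adult WT and nearer at E18.5 and in adult HET.

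By position, 4 of the 29 sites lay over the coding start, 6 in or across the gene body, 10 upstream and 9 downstream. Adult HET had none over a start or in a gene body, with 2 of its 7 sites upstream and 5 downstream. Over all protein-coding genes, 1.73% had their coding start inside an adult HET site. E18.5 had 2 sites over a start and 2 in a gene body out of 6. For 16 of the 29 sites the member had the nearest coding start, which was the case for 4 of 6 sites at E18.5, 7 of 12 at P0, 2 of 7 in adult HET and 3 of 4 in adult WT. The other 13 lay closer to a neighbouring gene, and which gene such a site acts on is not measured here. Neither the position classes nor the nearest-start counts are set beside all sites here, so nothing particular to the family is read from them. The farthest site inside the limit was the Hes5 site at P0, 16.3 kb from the gene, and the nearest outside was a P0 site of 79 bp at 21.1 kb from Hey2.

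Merged across lists, the 29 sites formed 21 regions, of which 16 were in a single list. Of the remaining 5, 3 were in 2 lists (the Hes5 pair and Hey1), 1 in 3 lists (Hes1) and 1 in all 4 (Hes7). Of 11 regions within 5 kb of a member's start, 4 were in more than 1 list, and of 10 regions farther away, 1 was. Merged regions were not counted over all genes, so nothing particular to these 7 genes is read from these region counts. Of the 6 E18.5 sites, 4 met a P0 site, where 88.6% of E18.5 sites in gene windows did. The exceptions were the Hes6 promoter and the site upstream of Hes7. In the other direction 4 of 12 P0 sites met an E18.5 site, against 35.8% of P0 sites in gene windows.

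Between the adult lists, 2 of 7 adult HET sites met an adult WT site and 2 of 4 adult WT sites met an adult HET site. The shares over sites in gene windows were 5.86% and 8.91%. The shared pairs were the upstream region of Hes5 and the 3' region of Hes7, and at both the adult HET site was the narrower, at 170 bp against 409 bp for Hes5 and 123 bp against 337 bp for Hes7. The whole adult HET list was also narrower, with the median of 108 bp against 167 bp. The Hes1 promoter was the 1 place where adult WT had a site within 1 kb of a start and adult HET had none. Adult WT also had the distal site upstream of Hes1, which adult HET lacked. In the reverse direction, adult HET had sites upstream of Hes1, on the 3' side of Hes5, downstream of Hes6, inside Aloxe3 and downstream of Heyl that adult WT lacked. The list of adult HET was the longer, and with 1 merged list per genotype a difference in binding and a difference in detection cannot be told apart.

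Against the younger stages, 1 of 7 adult HET sites met an E18.5 site and the same 1 met a P0 site, at Hes7, where 4.22% and 5.03% of adult HET sites in gene windows did. In adult WT 2 of 4 sites did so with each, at Hes1 and Hes7, against 11.9% for E18.5 and 13.4% for P0. At E18.5, 1 of 6 sites met an adult HET site and 2 met an adult WT site, against 1221 and 2184 of the 10904 E18.5 sites in gene windows. At P0 it was 1 and 2 of 12, against 4.97% and 8.48%. The lists shared sites at 2 genes across age, Hes1 and Hes7, and held different sites upstream of Hes5, while Hes6 and Hey1 had proximal sites in younger cortex only. As stage and run were the same split, this cannot be told apart from a difference between runs.

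**Figure D4:**
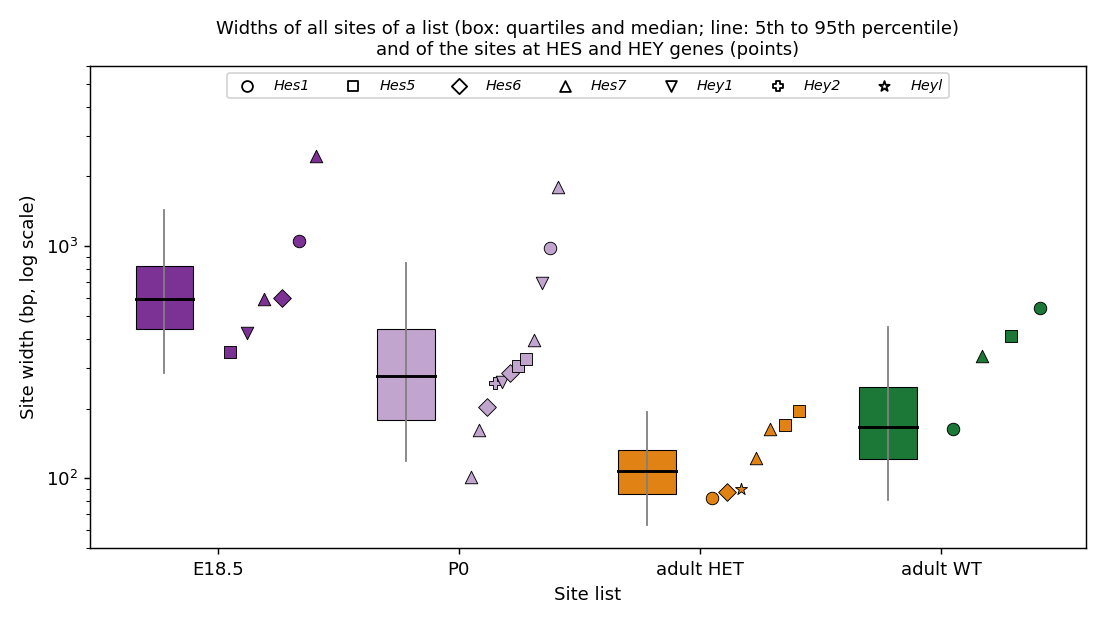
Width of sites in bp on a log axis for E18.5, P0, adult HET and adult WT. Boxes give quartiles and median of all sites of a list and lines the 5th to 95th percentile, and each point is a site at a HES or HEY gene, with the gene as marker shape. The widest points at E18.5 and P0 are Hes7 (2454 bp and 1795 bp), those of adult HET are at Hes5 (196 bp and 170 bp), and that of adult WT is at Hes1 (540 bp).

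Member sites were set against the widths of their own lists. At or above the median width of the list were 4 of 6 sites at E18.5, 7 of 12 at P0, 4 of 7 in adult HET and 3 of 4 in adult WT. In the widest 10% of a list were 1 site at E18.5 (Hes7), 3 at P0 (Hes1, Hes7 and Hey1), 2 in adult HET (both at Hes5) and 2 in adult WT (Hes1 and Hes5). Member sites had a median GC content of 51.0%, 52.6%, 41.4% and 47.1% from E18.5 to adult WT, beside 45.4%, 44.3%, 37.9% and 40.9% over all sites. The part of a member site annotated as repeat did not exceed 27.9%, which was the P0 site at Hey2.

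AAAGTT was present anywhere in the site for 4 of 6 member sites at E18.5, 4 of 12 at P0, 1 of 7 in adult HET and 2 of 4 in adult WT. Over all sites the shares were 44.3%, 27.4%, 11.3% and 17.5%, which depend on width. Within 75 bp of the midpoint the counts were 0, 2, 1 and 2, and those sites belonged to Hes1 and Hes6 at P0, Hes7 in adult HET, and Hes1 and Hes7 in adult WT. TGGGAA was in 4, 5, 1 and 2 member sites from E18.5 to adult WT, beside 45.9%, 27.0%, 9.1% and 18.6% of all sites. CACGCG, a class C word that HES and HEY proteins bind, was in 4 of 6 sites at E18.5 and 4 of 12 at P0, beside 14.5% and 7.09% of all sites, in 0 of 7 in adult HET and in 1 of 4 in adult WT, beside 0.365% and 1.31%. Those sites lay at Hes1, Hes7 and Hey1, with the P0 site over the Pank4 start as well. Sites at Hes1, Hes7 and Hey1 were counted again in each list that held them. Within 75 bp of the midpoint CACGCG was in 0 of 6, 3 of 12, 0 of 7 and 1 of 4 member sites. The shares over all sites were then 4.26%, 3.14%, 0.4% and 0.84%. Whether these counts followed site width or GC content was not tested. CACGTG, the other E-box-like word, was in a single member site, that of Hes7 at E18.5, and CACNAG in 4, 8, 2 and 2 sites, beside 65.5%, 45.1%, 15.7% and 27.0%.

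Other genes of the pathway were counted in the same way, by a site within 5 kb of a start. Of 9 Notch receptors and ligands, 3 had such a site at E18.5, 6 at P0, 2 in adult HET and 1 in adult WT. The most widely listed was the receptor gene Notch4, with 797 bp in sites at E18.5, 582 bp at P0, 0 in adult HET and 183 bp in adult WT. Dll1, the ligand that newborn neurons present to progenitors, had 525 bp at E18.5 and 1451 bp at P0 and none in the adult lists. The receptor gene Notch2 likewise had 647 bp at E18.5 and 556 bp at P0 only, and the ligand gene Jag1 had 344 bp at P0 and 109 bp in adult HET.

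Of 21 genes that process Notch or act with RBPJ, 16 had such a site at E18.5, where 31.7% of all genes did, 15 at P0 (48.7%), 10 in adult HET (30.4%) and 9 in adult WT (24.6%). Among all genes with a CpG-rich promoter the share was 52.2%, 74.9%, 36.3% and 33.7% in the same order. The genes of these groups were not matched for promoter type or gene length. Numb, an inhibitor of Notch, Psenen and Aph1a, subunits of the gamma-secretase that frees the intracellular part, and Maml2, a co-activator of the RBPJ complex, had sites in all 4 lists. Numb held 1057 bp, 1041 bp, 338 bp and 726 bp from E18.5 to adult WT. Among Groucho/TLE co-repressors, the partners of HES proteins, 5 of 6 had a site at E18.5, 5 at P0, 2 in adult HET and 3 in adult WT, with Tle1 and Tle4 in all 4. The 6 proneural genes that HES proteins repress had 2, 4, 0 and 1 with a site, led by Neurod1 with 1149 bp at E18.5, 2907 bp at P0 and 163 bp in adult WT. Of the 5 other bHLH-Orange genes, 1, 2, 2 and 1 had a site, and Bhlhe40 was in all 4 lists. The backgrounds for these counts are the shares of all genes and of CpG-rich genes given above for 5 kb.

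Genes with the most similar amount of bound DNA near their starts were looked up for each member with a site within 5 kb in at least 2 lists, by Euclidean distance of log2(bp + 1) over the 4 lists. Nearest to Hes1, with 1058 bp, 985 bp, 82 bp and 540 bp from E18.5 to adult WT, were Zfp40 (distance 0.31), Hmgcs1 (0.32) and Dmxl1 (0.34). For Hes5, with 0, 327 bp, 366 bp and 409 bp, they were Hectd4 (0.28), Zfp991 (0.36) and Ccdc88a (0.41). For Hes7, with 2522 bp, 2050 bp, 123 bp and 337 bp, they were Cacna1c (0.26), 9130213A22Rik (0.29) and Fmc1 (0.31). A coding start of 9130213A22Rik lies within the span of Hes7, and that gene shares the sites of Hes7. For Hey1, with 423 bp, 954 bp, 0 and 0, they included Tmco1 (0.08) and Slx1b (0.08). This measure uses 4 values per gene and says nothing of function or control.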

How the data were processed

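The authors ran CUT&RUN reads through the nf-core/cutandrun pipeline, and the build per the labels was mm10. Which caller and cut-off defined a site, and whether IgG served as control, is not given in the sources at hand. The deposited files hold 1 list of sites per MYT1L group, merged over 3 libraries, whose unit is the position of each site in bp (start and end). Library depth was unknown, and IgG libraries are not analysed here. Sites were set against 21938 protein-coding genes of GENCODE on GRCm38, which is mm10, using Python 3.11.15 (numpy 2.4.6, pandas 2.3.3, matplotlib 3.10.9), and the interval and motif steps were tested on simulated data. A gene was counted within 5 kb, the study's target distance, when a site shared at least 1 bp with 5 kb around a start of any of its transcripts. A CpG-rich promoter had at least 50% GC and an observed over expected CpG of at least 0.6 within 1000 bp centred on the coding start. Overlap between lists needed 1 bp. Words were searched on both strands within 75 bp of a midpoint and in the whole site.

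All 7 genes are named, with the 3 genes most alike each member bound in at least 2 lists, at most 4 genes per pathway list (most lists, then most bp), and neighbours with the nearest start. Per2 was added after its position was seen, as the gene a site lies in. A gene that this rule would name is not reported here. The genes and lists were chosen with earlier results of these data known. Alternatives were other windows, width limits, start sets, overlap rules and motif windows.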

Additional observations from a re-analysis of the deposited data

How the results depend on the processing

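No paired analysis was possible because each deposited list merges the libraries of a group, and for the same reason leaving out each replicate was not run. With no score or depth, width was the only filter on sites. Of 104 main counts under alternative settings, 80 stayed within 1.5 times the reported count. Those 80 include, for each list, a setting that changed only the background genes, so its member count could not move. The counts outside that limit changed under another window, distance, width limit, nearest-start rule or motif window. What caused each change was not tested.

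With sites at least as wide as the list median, members with a site in the window numbered 3 at E18.5 and 2 in adult HET, the window held 7 sites at P0 and 4 in adult HET, and E18.5 and P0 sites met each other at 2 sites in each direction, since the E18.5 sites at Hes5 and Hey1 were left out. With sites of at least 150 bp, adult HET had 2 members and 3 sites. A 50 kb window held 10 sites at E18.5, 23 at P0, 15 in adult HET and 15 in adult WT, where 5 members then had a site. With sites whose nearest start is the member's, P0 had 7 sites, and adult HET had 2 sites at 2 members. Within 1 kb of a start, 2 members had a site at P0, 0 in adult HET and 1 in adult WT. AAAGTT in the whole site was in 4 sites at E18.5 and 4 at P0, and within 250 bp of the midpoint in 3 at E18.5, 5 at P0 and 2 in adult HET, against 0, 2 and 1 within 75 bp. Without the non-coding starts, adult HET had 2 members within 5 kb, without Hes1.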
